A study of Homo sapiens with 6 samples.

Results

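The genes described here are 47 genes of mitosis and the spindle checkpoint, taken from a list of symbols and matched to Ensembl gene identifiers among the 58395 genes of the expression files. All 47 were matched, and all passed the filter on low counts that left 15566 genes for testing. RNA was sequenced from HCT116, a line of human colorectal cancer cells, in 3 libraries that carried a non-target control hairpin (shControl) and 3 that carried a hairpin against STBD1 (shSTBD1). STBD1 is a cargo receptor that carries glycogen into autophagosomes. The hairpins were delivered by lentivirus, the methods give drug selection after infection, with puromycin or G418, and the labels give DMEM with serum as the medium of both groups. Each group is named by a single hairpin, so the loss of STBD1 and any other effect of that hairpin cannot be told apart. The series' design text calls the libraries of a group biological replicates, no source names separate infections, and the p-values measure the spread between these libraries.

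A cell enters mitosis when cyclin B activates the kinase CDK1, after CDC25 phosphatases have removed the inhibitory phosphates that WEE1 placed on it. Kinetochores then join the chromosomes to spindle microtubules, and a kinetochore without a microtubule keeps the spindle checkpoint active, which holds back CDC20 and the ubiquitin ligase APC/C. Once all chromosomes are attached, the APC/C marks securin and cyclin B for destruction, separase cuts the cohesin between sister chromatids, and the cell divides. Most of these genes are transcribed late in the cell cycle by FOXM1, MYBL2 and the MuvB complex. In bulk RNA, fewer cells in or near mitosis and less RNA per cell cannot be told apart.

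The libraries held between 17689097 and 21668274 expected counts, and the common biological coefficient of variation between replicates was 3.37%. STBD1 (ENSG00000118804, GRCh38 chr4:76306733-76311130) was measured at 16.2, 15.7 and 14.4 CPM (counts scaled to a common library size) in shControl and at 11.6, 9.06 and 9.18 CPM in shSTBD1. The groups did not overlap, and the log2 fold change was -0.64 (SE 0.098, adjusted p = 0.00029, edgeR). STBD1 shared some reads with other genes, with a posterior SD of 8.37% of its count. Of the 7 epithelial markers, VIL1 was under 1 TPM in every library, and the summed level was 2858 to 2893 TPM in shControl and 3242 to 3378 TPM in shSTBD1. Of 6 epithelial markers tested, 4 were higher in shSTBD1 at an adjusted p under 0.05, namely KRT19, CDH1, KRT18 and KRT8, where 8.22% of all tested genes were. EPCAM (log2 fold change 0.040, adjusted p = 0.42) and CDX2 (-0.072, adjusted p = 0.66) did not pass. The 5 fibroblast markers summed to 14.6 to 19.6 TPM in shControl and 17.1 to 20.7 TPM in shSTBD1, with 4 of them under 1 TPM in every library and LUM at 0, and the 4 leukocyte markers to 0.45 to 0.81 TPM and 0.54 to 0.74 TPM, with PTPRC and CD3E at 0. The part of the higher epithelial level in the results below was not tested.

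Per length, in TPM (counts divided by effective length, with every library brought to one total), CDC20 was the highest member with a mean of 256.5 TPM over the 6 libraries. BUB3 followed at 231 TPM, then CCNB1. The lowest were KIF14 at 10.4 TPM and CDC25C at 9.66 TPM. The order was gradual: of 46 pairs of neighbours in it, 42 overlapped in their range over the libraries. The separate pairs were BUB3 above CCNB1, UBE2C above NUSAP1, PLK1 above CCNA2, and SPC24 above ASPM. The members took 0.665% to 0.666% of all expected counts in the shControl libraries and 0.653% to 0.655% in the shSTBD1 libraries. This share is weighted by counts. MKI67, the member with the highest counts, had a mean of 934 CPM in shControl and 815 CPM in shSTBD1. Read on the CPM scale, the fall of MKI67 alone was about as large as the fall of the whole share. The share without MKI67 was not computed. Of the 47 members, 22 had a positive and 25 a negative log2 fold change. The summed TPM of all members overlapped between the groups, at 3266 to 3485 TPM in shControl and 3345 to 3416 TPM in shSTBD1.

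**Figure D1:**
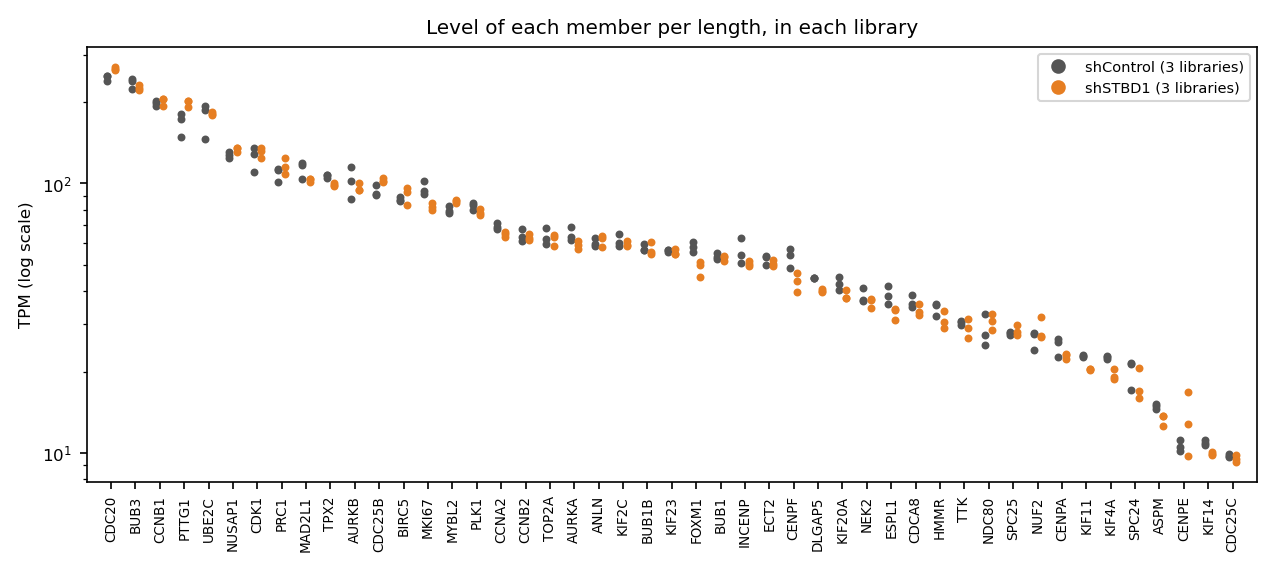
Level of each of the 47 members in TPM on a log axis, with members ordered by their mean, for the 3 shControl and 3 shSTBD1 libraries as points. Levels fall from CDC20 at 256.5 TPM to CDC25C at 9.66 TPM, and most neighbours overlap.

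STBD1 knockdown went with small changes of both signs among the mitotic genes. At an adjusted p under 0.05, 15 of 47 members changed (31.9%), against 15.8% of all tested genes and 22.6% of the 9371 genes whose mean CPM lay within the range of the members, a range set after the values were seen. Of the 15 members, 7 were higher in shSTBD1 (8.22% of all genes were) and 8 were lower (7.54% of all genes were). The 7 were PTTG1, PRC1, CDC25B, CDC20, MYBL2, BIRC5 and NUSAP1. The 8 were FOXM1, ASPM, MKI67, CENPF, KIF4A, INCENP, KIF11 and ESPL1. The remaining 32 did not pass the test. The count depended on the setting. It was 8 with DESeq2, 0 with offsets for effective length and 0 with limma on TPM, and it ran from 5 without shSTBD1 2 to 18 without shControl 1 (7 higher, 11 lower). The changes were small, between 0.10 and 0.26 in absolute log2 fold change. In the main edgeR fit no member passed an unadjusted p of 1e-05, which 2.38% of all genes passed. Without the filter on low counts, edgeR gave FOXM1 an adjusted p of 1.2e-07 and ASPM one of 2.9e-06, both below it. An unadjusted p is never larger than its adjusted p, and the unadjusted values of this setting are not given here. CENPF had an adjusted p of 2.9e-05 in this edgeR setting, so other members may pass 1e-05 there as well. The study's methods used 1e-05 for the strictest gene list and looser thresholds for others. They applied it with DESeq2, whose unadjusted p-values are not given here. The median log2 fold change was -0.029 over the members and 0.0023 over all genes. In absolute size the medians were 0.089 and 0.11, and 0.084 over the 9371 genes in the CPM range of the members. The groups did not overlap for 27 members (57.5%), among them the 15 that passed, against 33.6% of all genes.

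**Figure D2:**
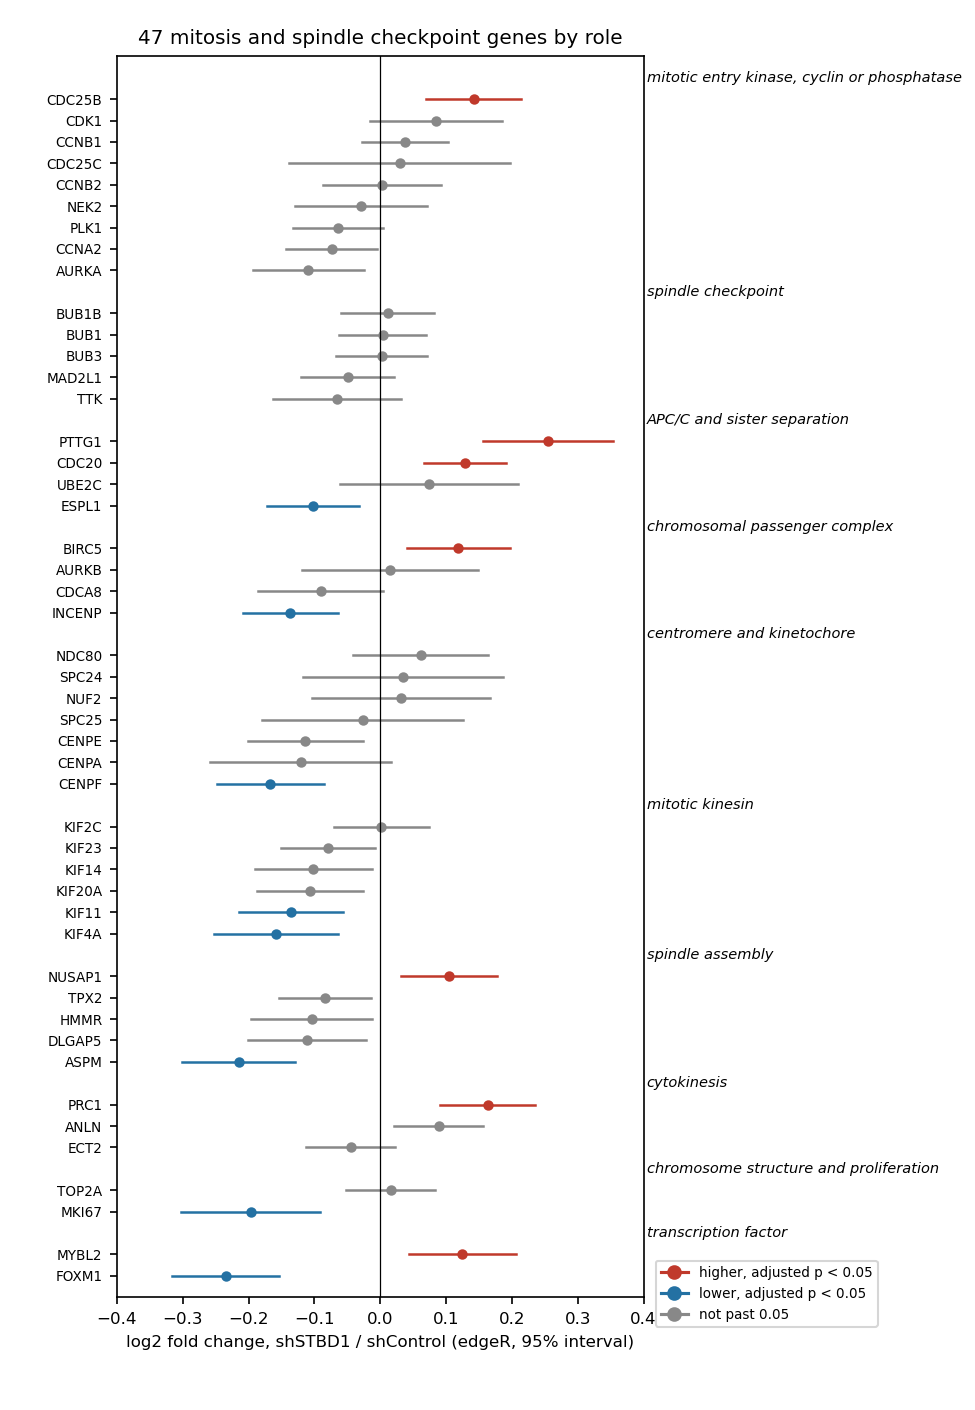
Log2 fold change of shSTBD1 over shControl for each member, grouped by role, with points for the edgeR estimate and lines for the 95% interval, red where higher and blue where lower at an adjusted p under 0.05. The 5 spindle checkpoint genes run from -0.066 to 0.011, and every role, theirs included, holds members on both sides of 0. Of the 6 mitotic kinesins, 5 lie below 0.

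Promoter sequence is shown for 3 members that rose and 3 that fell, since members of both kinds carry the promoter letters known from mitotic genes. The letters searched were TTTGAA or TTCGAA, the cell cycle genes homology region (CHR), and CCAAT, the CCAAT box, on both strands. TTCGAA reads the same on both strands, and in CCAATTGG the box overlaps its own reverse. In the printed bases PTTG1 and CENPF held the CCAAT box only, while PRC1, CDC20, ASPM and ESPL1 held the CHR letters as well. The 120 bases before the start are given 5′ to 3′ with the matches in capitals, from RefSeq on GRCh38.p14, at PTTG1 chr5:160421735-160421854 (plus strand), PRC1 chr15:90994536-90994655 (minus strand), CDC20 chr1:43358861-43358980 (plus strand), ASPM chr1:197146670-197146789 (minus strand), CENPF chr1:214603075-214603194 (plus strand) and ESPL1 chr12:53268179-53268298 (plus strand).
PTTG1: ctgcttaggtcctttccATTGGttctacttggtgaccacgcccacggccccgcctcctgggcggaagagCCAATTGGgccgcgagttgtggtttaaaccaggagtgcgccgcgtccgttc
PRC1: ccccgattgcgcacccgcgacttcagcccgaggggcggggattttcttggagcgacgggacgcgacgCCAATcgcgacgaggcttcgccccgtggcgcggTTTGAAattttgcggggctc
CDC20: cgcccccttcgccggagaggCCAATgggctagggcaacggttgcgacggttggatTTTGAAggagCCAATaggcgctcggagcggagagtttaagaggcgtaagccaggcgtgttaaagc
ASPM: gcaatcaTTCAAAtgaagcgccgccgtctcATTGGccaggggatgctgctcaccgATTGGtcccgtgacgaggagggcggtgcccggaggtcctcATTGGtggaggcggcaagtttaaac
CENPF: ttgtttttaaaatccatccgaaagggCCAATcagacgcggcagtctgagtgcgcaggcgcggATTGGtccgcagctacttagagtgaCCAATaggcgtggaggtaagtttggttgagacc
ESPL1: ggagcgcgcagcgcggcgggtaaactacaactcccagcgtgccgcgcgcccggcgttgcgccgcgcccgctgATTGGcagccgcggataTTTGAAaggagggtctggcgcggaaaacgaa

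Of the 47 members, 40 had an entry in the RefSeq table of promoters, which runs from 250 bases before to 50 bases after each start. AURKA, BIRC5, BUB3, FOXM1, TPX2, TTK and UBE2C had none. The CHR letters stood in 30 of 40 member genes (75%), against 15.2% of 11167 tested genes in the table. The CCAAT box stood in 33 (82.5%), against 42.8%, and both together in 26 (65%), against 6.31%. Of 6 members that were higher in shSTBD1, 4 held both, and of 7 that were lower, 7 did. Of the 27 that did not pass the test, 15 held both. A match describes letters and is no proof of binding.

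Of the 9 genes of mitotic entry, 1 rose and none fell at an adjusted p under 0.05. CDC25B, a phosphatase that activates CDK1, stood at 205, 214 and 198 CPM in shControl and at 231, 227 and 223 CPM in shSTBD1. Every shSTBD1 library was above every shControl library, with a log2 fold change of 0.14 (SE 0.034, adjusted p = 0.0099). CDK1, the kinase of mitotic entry, was at 155, 181 and 173 CPM in shControl and at 183, 185 and 172 CPM in shSTBD1. The groups overlapped, and shControl 1 was the lowest library. The log2 fold change of CDK1 was 0.085 (95% interval -0.016 to 0.19, adjusted p = 0.25). CCNB1, its cyclin B partner, was at 218, 216 and 222 CPM and at 225, 221 and 227 CPM. These groups also overlapped, with a log2 fold change of 0.037 (95% interval -0.027 to 0.10, adjusted p = 0.45). PLK1, the polo-like kinase, was at 136, 139 and 135 CPM and at 129, 130 and 133 CPM. The shSTBD1 libraries were lower in each case, but the log2 fold change of -0.064 did not pass the test (95% interval -0.13 to 0.0050, adjusted p = 0.20). Of the others, AURKA, a centrosome kinase, had a log2 fold change of -0.11 (adjusted p = 0.072) and CCNA2, cyclin A, -0.074 (adjusted p = 0.14). NEK2, a kinase of centrosome separation, had -0.029, CDC25C, a second CDK1 phosphatase, 0.030, and CCNB2, a second cyclin B, 0.0023.

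None of the 5 spindle checkpoint genes passed the test. BUB1, BUB1B and BUB3, which gather on unattached kinetochores, had log2 fold changes of 0.0035, 0.011 and 0.0019. Their 95% intervals ran from -0.063 to 0.070, from -0.059 to 0.082 and from -0.067 to 0.071. MAD2L1, the inhibitor of CDC20, had -0.049 (adjusted p = 0.35), and TTK, the kinase that starts checkpoint signalling, had -0.066 (adjusted p = 0.37).

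Among the 4 genes of APC/C activation and sister separation, 2 rose and 1 fell. PTTG1 encodes securin, the inhibitor of separase, and was at 67.0, 76.2 and 74.5 CPM in shControl and at 86.7, 84.2 and 89.0 CPM in shSTBD1. This was the largest rise among the members, 19.4%, with a log2 fold change of 0.26 (SE 0.047, adjusted p = 0.0014). ESPL1, which encodes separase, was at 154, 151 and 150 CPM and at 142, 144 and 137 CPM, and fell by 0.10 on the log2 scale (SE 0.033, adjusted p = 0.044). The ESPL1 call was lost in 5 of 6 fits that left out a library (adjusted p = 0.071 to 0.21) and with DESeq2 (adjusted p = 0.096), library size scaling (adjusted p = 0.062), no filter (adjusted p = 0.061) and length-trend offsets (adjusted p = 0.14). CDC20, the APC/C activator that the checkpoint holds, was at 293, 290 and 297 CPM and at 321, 321 and 320 CPM. The 3 shSTBD1 libraries lay within 2 CPM of each other, and the log2 fold change was 0.13 (SE 0.029, adjusted p = 0.0070). UBE2C, the ubiquitin-conjugating enzyme of the APC/C, had 0.074 (adjusted p = 0.48), with shControl 1 at 72.9 CPM against 87.99 to 92.6 CPM in the other libraries.

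In the chromosomal passenger complex, which corrects faulty attachments, 1 of 4 genes rose and 1 fell. BIRC5, survivin, was at 152, 145 and 145 CPM in shControl and at 161, 165 and 152 CPM in shSTBD1, with a log2 fold change of 0.12 (SE 0.037, adjusted p = 0.038). INCENP, the scaffold of the complex, was at 119, 115 and 116 CPM and at 106, 104 and 108 CPM, with a log2 fold change of -0.14 (SE 0.034, adjusted p = 0.012). Neither gene overlapped between the groups. AURKB, the kinase of the complex, was at 57.2, 72.5 and 64.5 CPM and at 65.8, 67.0 and 63.5 CPM. The shSTBD1 values of AURKB lay inside the range of shControl (log2 fold change 0.014, 95% interval -0.12 to 0.15, adjusted p = 0.91). CDCA8, borealin, had -0.091 (adjusted p = 0.19).

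Of 7 centromere and kinetochore genes, 1 fell. CENPF, a large protein of the outer kinetochore, was at 370.0, 331 and 337 CPM in shControl and at 310.0, 304 and 311 CPM in shSTBD1. Its log2 fold change was -0.17 (SE 0.038, adjusted p = 0.0072), and shControl 1 was the highest library. CENPE, a kinesin that moves chromosomes to the spindle equator, had -0.11 (adjusted p = 0.072), and CENPA, the histone of centromeres, -0.12 (adjusted p = 0.23). The 4 subunits of the NDC80 complex, which binds microtubules, did not pass the test. Their log2 fold changes were 0.061 for NDC80, 0.032 for NUF2, 0.034 for SPC24 and -0.027 for SPC25.

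Of 6 mitotic kinesins, 2 fell. KIF11, the motor that pushes the spindle poles apart, was at 94.6, 88.8 and 91.1 CPM in shControl and at 82.2, 83.9 and 83.7 CPM in shSTBD1 (log2 fold change -0.14, SE 0.037, adjusted p = 0.021). KIF4A, a chromosome motor that also works at the central spindle, was at 80.9, 73.6 and 78.8 CPM and at 72.6, 67.6 and 68.9 CPM (log2 fold change -0.16, SE 0.045, adjusted p = 0.024). For both, each shSTBD1 library was below each shControl library. The other values were -0.11 for KIF20A (adjusted p = 0.068), -0.10 for KIF14 (adjusted p = 0.11) and -0.079 for KIF23 (adjusted p = 0.12), which act in cytokinesis. KIF2C, which takes microtubule ends apart, had 0.0017.

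Among 5 genes of spindle assembly, 1 rose and 1 fell. ASPM, a protein of spindle poles, was at 127, 119 and 120.2 CPM in shControl and at 109, 99.7 and 108 CPM in shSTBD1. It fell by 13.8% (log2 fold change -0.21, SE 0.041, adjusted p = 0.0018), with no overlap. NUSAP1, which bundles spindle microtubules, was at 134, 138 and 142 CPM and at 144, 151 and 148 CPM (log2 fold change 0.10, SE 0.034, adjusted p = 0.049). Leaving out any 1 of the 6 libraries took NUSAP1 out of the calls. TPX2, which activates AURKA on the spindle, had -0.084 (adjusted p = 0.10), HMMR -0.10 (adjusted p = 0.12) and DLGAP5 -0.11 (adjusted p = 0.084), both of them microtubule binders of the spindle.

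Of 3 genes of cytokinesis, 1 rose. PRC1, which bundles the central spindle, was at 162, 154 and 160 CPM in shControl and at 180.3, 173 and 180.2 CPM in shSTBD1 (log2 fold change 0.16, SE 0.034, adjusted p = 0.0037). ANLN, a scaffold of the contractile ring, had 0.089 (adjusted p = 0.070), and ECT2, which activates RhoA there, -0.045 (adjusted p = 0.38).

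MKI67, the proliferation marker Ki-67, which coats mitotic chromosomes, had the highest counts of all members. It stood at 1038, 876 and 888 CPM in shControl and at 828, 788 and 828 CPM in shSTBD1. The groups did not overlap, and shControl 1 stood above the other libraries. The log2 fold change was -0.20 (SE 0.050, adjusted p = 0.013), and without shControl 1 it was -0.12 and still passed. The call was lost without shSTBD1 2 (adjusted p = 0.093) and with DESeq2 (adjusted p = 0.10). TOP2A, the topoisomerase that untangles sister chromatids, had 0.016 (adjusted p = 0.79).

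Of the transcription factors, FOXM1 fell and MYBL2 rose, the latter near the threshold. FOXM1, which drives late cell cycle genes, was at 136, 126 and 126 CPM in shControl and at 113, 107 and 109 CPM in shSTBD1. It had the smallest p of the members, with a log2 fold change of -0.24 (SE 0.038, adjusted p = 0.00052). MYBL2, which works with the MuvB complex before FOXM1, was at 177, 161 and 161 CPM and at 180, 185 and 179 CPM (log2 fold change 0.12, SE 0.038, adjusted p = 0.037). The MYBL2 call was lost in 5 of 6 fits that left out a library (adjusted p = 0.081 to 0.16) and with DESeq2 (adjusted p = 0.054). Neither gene overlapped between the groups.

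FOXM1, PTTG1, ASPM, PRC1 and CDC20 passed the edgeR test whichever library was left out. INCENP, CENPF and MKI67 passed in 5 of these 6 fits, CDC25B and KIF4A in 3, BIRC5 and KIF11 in 2, ESPL1 and MYBL2 in 1 and NUSAP1 in 0. None of the 15, these 5 included, passed with offsets for effective length or with limma on TPM. With DESeq2, FOXM1, PTTG1, ASPM, PRC1, CDC20, CDC25B, CENPF and INCENP passed. DESeq2 lost BIRC5 (adjusted p = 0.074), KIF11 (adjusted p = 0.069) and KIF4A (adjusted p = 0.063), besides ESPL1, MKI67, MYBL2 and NUSAP1. The 15 kept their sign under all 17 alternative settings. In the 8 members that fell, shControl 1 was the highest of the 6 libraries, and its part in their fall beyond the fit without it was not tested.

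**Figure D3:**
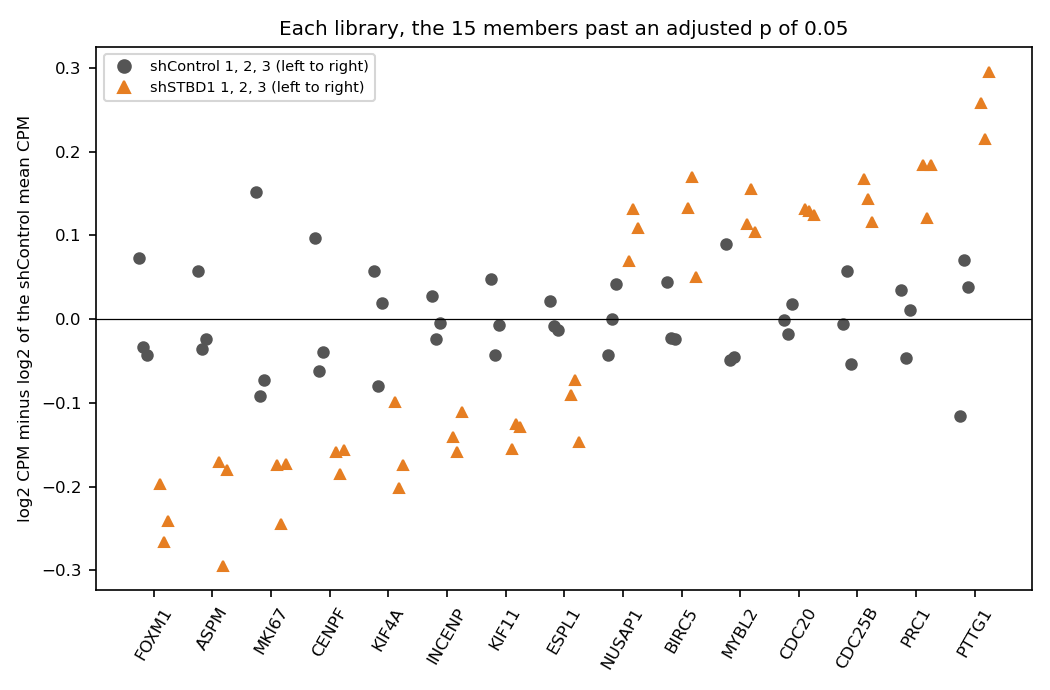
For the 15 members past an adjusted p of 0.05, log2 CPM of each library minus log2 of the shControl mean, with circles for shControl and triangles for shSTBD1. In each gene the 3 triangles lie on one side of the 3 circles, and shControl 1 is the highest circle for each of the 8 members that fell.

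Ratios within a library were formed for 4 pairs of members that work together and moved apart, pairs chosen after their values were seen and given without a test. The log2 ratio of PTTG1 to ESPL1, securin to separase, was -1.20, -0.98 and -1.01 in shControl and -0.71, -0.77 and -0.62 in shSTBD1. The mean rose by 0.36, from -1.06 ± 0.12 to -0.70 ± 0.078 (SD, n = 3 each). For BIRC5 to INCENP it went from 0.34 ± 0.018 to 0.59 ± 0.085, for MYBL2 to FOXM1 from 0.36 ± 0.017 to 0.72 ± 0.057, and for PRC1 to KIF4A, which meet at the central spindle, from 1.03 ± 0.030 to 1.35 ± 0.037 (SD, n = 3 each). Each pair joins a member that rose with one that fell, so that the choice fixed the separation of the groups, and the ratios only give its size.

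**Figure D4:**
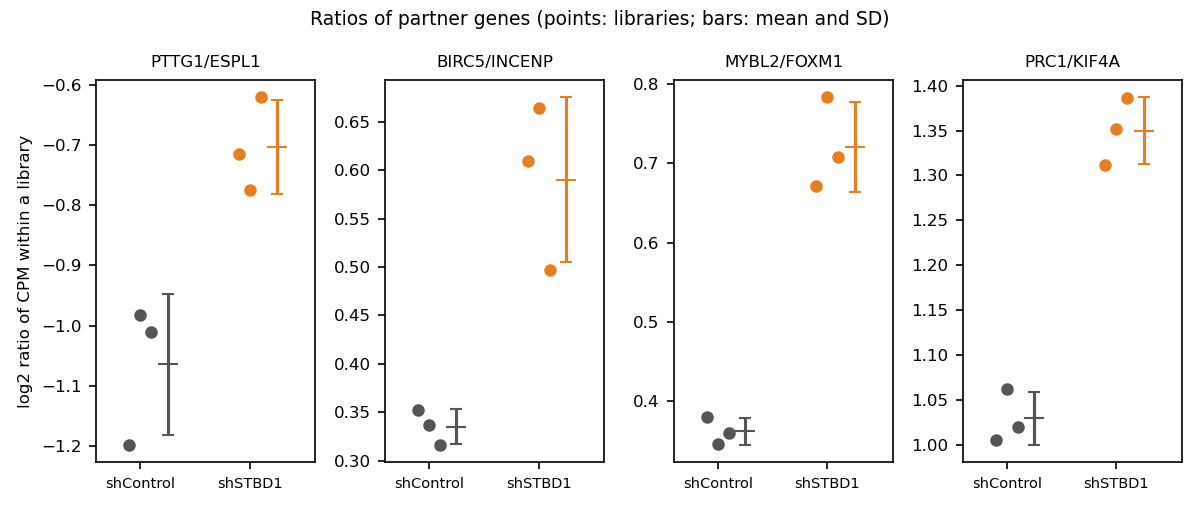
Log2 ratio of CPM within each library for 4 pairs of members, with points for libraries and bars for the mean and SD of 3. The pairs were chosen for moving apart, and the means differ by 0.25 to 0.36.

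The direction of change varied with transcript length. Over the 47 members, the log2 fold change correlated with log2 effective length at Pearson's r = -0.60 and Spearman's rho = -0.54, given as a description since the genes share the same 6 libraries. Over all tested genes the values were -0.12 and -0.17. Of the 16 shortest members, 493 to 1543 bases, 3 rose and none fell. Of the 15 of middle length, 4 rose and 2 fell, and of the 16 longest, 2550 to 11149 bases, none rose and 6 fell. Among all genes of the longest class 6.9% rose and 13.0% fell, and of the shortest 10.3% rose and 2.79% fell. The libraries differed in this trend themselves. A member's deviation was taken from its mean over the 6 libraries, so opposite signs between the groups follow from the fold changes. Its correlation with length was 0.73 in shControl 1, 0.051 and 0.25 in shControl 2 and 3, and -0.36, -0.62 and -0.54 in the shSTBD1 libraries. Over all tested genes the same correlation was 0.15, -0.007 and 0.043 in shControl 1, 2 and 3. In shSTBD1 1, 2 and 3 it was -0.019, -0.10 and -0.081. Without shControl 1, r for the members was -0.41. With offsets that remove each library's length trend over all genes, r was -0.37, 15 members still passed (15.5% of all genes did), and 13 of the 15 were shared. ESPL1 and NUSAP1 were lost and ANLN and AURKA gained. The part of length in the changes of single members was not tested beyond this.

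**Figure D5:**
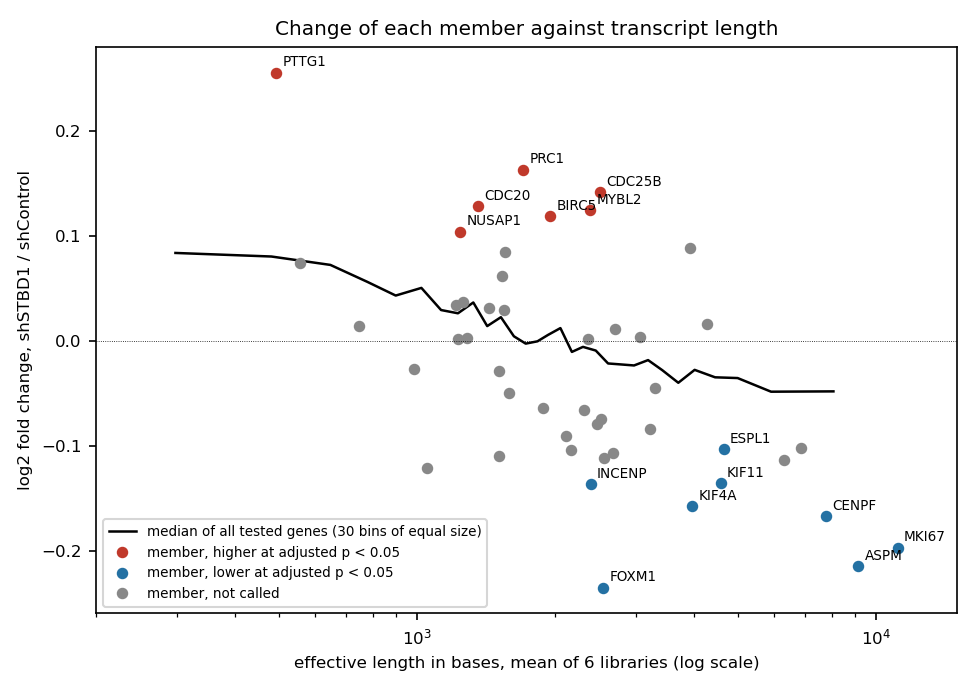
Log2 fold change of each member against its effective length in bases on a log axis, with the median of all tested genes along length as a line. Members that rose lie among the short and middle lengths, and the 16 longest hold 6 that fell.

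RSEM's effective length, which enters TPM but not the counts, differed by under 5% between the groups for 38 members. CENPE stood apart, at 7090, 6921 and 7314 bases in shControl and 5211, 7045 and 4163 bases in shSTBD1, 23.0% lower on average. Its counts gave a log2 fold change of -0.11 and its mean TPM a log2 ratio of 0.31. The direction of CENPE thus depended on the unit. In TPM it was at 10.2, 11.1 and 10.5 in shControl and at 12.7, 9.73 and 16.8 in shSTBD1.

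A further 6 lists of mitotic genes were counted in the same fit, and of their 114 genes 4 rose and 11 fell (13.2%), a share below the 15.8% of all tested genes. Of 17 APC/C subunits and cofactors 1 fell, ANAPC15, with a log2 fold change of -0.23 (adjusted p = 0.027). Of 35 other kinetochore and checkpoint genes 1 fell, the scaffold KNL1 (-0.12, adjusted p = 0.041). Of 19 cohesin and condensin genes 1 rose and 3 fell, among them STAG1, a cohesin subunit (-0.23, adjusted p = 0.0022), and CDCA5, sororin (-0.15, adjusted p = 0.0092). Of 23 other genes of spindle and cytokinesis 1 rose and 4 fell, among them the kinesins KIF18A (-0.23, adjusted p = 0.0043) and KIF18B (-0.15, adjusted p = 0.012). Of 9 genes of the MuvB and DREAM complexes none passed.

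Of 11 other genes of mitotic entry, 2 rose and 2 fell. WEE1, the kinase that holds CDK1 inactive, was at 52.3, 51.9 and 53.0 CPM in shControl and at 75.2, 70.5 and 75.3 CPM in shSTBD1. This rise, a log2 fold change of 0.49 (SE 0.042, adjusted p = 8.1e-07), was larger than that of any member. CKS2, a CDK-binding subunit, had 0.23 (adjusted p = 0.0057). For comparison, of 15 genes of DNA replication 5 rose and 1 fell, where 8.22% of all genes rose and 7.54% fell. Among them, MCM6, a subunit of the replicative helicase, was at 133, 127 and 128 CPM and at 215, 214 and 218 CPM (log2 fold change 0.74, SE 0.032, adjusted p = 7.1e-10). CCNE2, a cyclin of S phase entry, had 0.39 (adjusted p = 0.00038).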

How the data were processed

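RNA of HCT116 cells was sequenced as paired reads, 3 libraries of shControl and 3 of shSTBD1, grouped by their labels. The authors aligned reads to Hg38 with STAR 2.7.1a and estimated gene abundance with RSEM 1.3.1. They deposited expected counts (estimated counts, not normalized), TPM, the effective length and the posterior SD of each count. Whether counting used strand is not given in the sources used here. Read counts from GenomicAlignments were not used here.

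Expected counts were rounded, filtered by filterByExpr, scaled by TMM and tested by the quasi-likelihood F-test of edgeR 4.0.16 (R 4.3.3) without a replicate term, two-sided, with Benjamini-Hochberg adjustment over 15566 genes. Standard errors came from the log2 fold change and F. CPM used TMM library sizes. Depth was 17689097 to 21668274 counts per library, and no member was under 214 counts in any. The posterior SD, which marks shared reads, was at most 0.62% of a member's count. The main edgeR fit and the DESeq2 fit were tested on simulated counts.

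The members and lists were chosen with earlier results of these data known. Named were all members, with library values for those past an adjusted p of 0.05 and for CDK1, CCNB1, PLK1, AURKB, MKI67, FOXM1 and MYBL2, and of each other list at most the 2 genes with the smallest p. Alternatives were the replicate block, DESeq2 1.42.0, library size and upper-quartile scaling, no filter, at least 10 counts in every library, unrounded counts, offsets for effective length and for the length trend (lowess span 0.3), limma 3.58.1 on log2(TPM + 1) and log2(TPM + 0.1), and leaving out each library. Gene positions came from GENCODE on GRCh38 and promoters from RefSeq GRCh38.p14. A planned search of protein sequences was not analysed here.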

Additional observations from a re-analysis of the deposited data

How the results depend on the processing

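The count of members past an adjusted p of 0.05 was the most dependent value, while the 15 members kept their sign throughout. DESeq2 gave 8 (4 higher, 4 lower). Offsets for effective length gave 0 of 47 (0 higher, 0 lower; 17 at an unadjusted p under 0.05), and limma on log2(TPM + 1) and on log2(TPM + 0.1) gave 0 each (15 unadjusted). Under these 3 settings 511, 292 and 290 genes were called in all, and the median SE of a member rose from 0.038 to 0.054, 0.058 and 0.059. Leaving out 1 library gave 5 (without shSTBD1 2) to 18 members (without shControl 1), 3 to 7 higher and 2 to 11 lower. It gave 8 without shControl 3 and 9 without shSTBD1 1. The median log2 fold change was -0.050 with effective-length offsets, -0.046 with length-trend offsets, -0.059 and -0.060 with limma (1 and 0.1 added), and -0.058 to -0.025 over the libraries left out. STBD1 was -0.54 (adjusted p = 0.065) and -0.65 (adjusted p = 0.067) with limma (1 and 0.1 added), and -0.76 to -0.57 over the libraries left out. The cause of these differences was not tested. The replicate block gave 15 members (7 higher, 8 lower). Same-numbered libraries correlated in their deviations at 0.071, 0.068 and -0.0084, so the numbers were not taken to pair them.

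No member past the threshold changed sign. Some members that did not pass it changed sign. DESeq2 gave BUB3 -0.0001, CCNB2 -0.0003 and KIF2C -0.0006, and upper-quartile scaling gave -0.0010, -0.0007 and -0.0013. Length-trend offsets gave AURKB -0.042, BUB3 -0.029 and CCNB2 -0.026. Effective-length offsets gave AURKB -0.056, BUB1 -0.0067, BUB1B -0.0049, BUB3 -0.050, CCNB2 -0.012, CDC25C -0.031, CENPE 0.30, KIF2C -0.029, SPC24 -0.16, SPC25 0.043 and TOP2A -0.017. In the same order limma gave -0.060, -0.017, -0.017, -0.060, -0.022, -0.042, 0.27, -0.039, -0.17, 0.030 and -0.028 with 0.1 added, and -0.059, -0.016, -0.017, -0.060, -0.022, -0.039, 0.25, -0.038, -0.16, 0.029 and -0.028 with 1 added. Leaving out 1 library gave UBE2C -0.030 to 0.14, NEK2 -0.062 to 0.0083, NUF2 -0.046 to 0.094, TOP2A -0.0045 to 0.029, SPC24 -0.023 to 0.10, CDC25C -0.016 to 0.054, SPC25 -0.091 to 0.052, BUB1B -0.0091 to 0.026, AURKB -0.071 to 0.11, BUB1 -0.0057 to 0.012, BUB3 -0.023 to 0.018, CCNB2 -0.022 to 0.040 and KIF2C -0.018 to 0.022.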
